A study of Oryzias latipes with 4 samples.

Results

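Cholecystokinin is a peptide of gut and brain, and its precursor gene, cck, was followed through ribosome footprints and RNA of the medaka (Oryzias latipes) forebrain and pituitary. The gene was taken as the single transcript model MEDAKA011226, 1 of 93896 models in the deposited table, chosen by its identifier. The tissue was the dissected ventral telencephalon, hypothalamus and pituitary of female fish from a local dealer, collected 16 h after the fish had been moved out of what the labels call SD and into LD conditions. There were 2 Ribo-seq libraries (LD_Riboseq, ribosome protected fragments) and 2 RNA-seq libraries (LD_RNAseq, total RNA), all of that 1 condition, so the comparison is between the assays and not between light regimes. The labels give no strain or age, and do not say that replicates came from separate fish; the p-values below then measure only the spread between these libraries, which may be technical.

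The cck precursor is cut by prohormone convertases in the secretory granule, trimmed by carboxypeptidase, amidated at its carboxyl end and sulfated on a tyrosine before the peptide is released. In the vertebrate brain cholecystokinin is a co-transmitter of many neurons and a satiety signal. In medaka and other teleosts, hypothalamic cholecystokinin neurons that reach the pituitary have been described as stimulators of follicle-stimulating hormone cells. Ribo-seq counts the stretches of mRNA that ribosomes cover, and set against RNA-seq it shows how heavily a transcript is occupied by ribosomes compared with other transcripts.

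The cck model lies on chromosome 11 from 14265306 to 14268143 in the authors' coordinates, whose build is not given in the sources used here. It spans 2838 bases and has a length of 1143 bases, so it is spliced. By position it covers 100% of the span of the RefSeq gene cck (assembly ASM223467v1), which in turn covers 90.6% of the model, and the name rests on this position alone, without strand. It overlaps no other model, unlike 71.7% of all models, so its reads are not split with another model at the locus. The closest model on the side of lower coordinates, 5.40 kb away, had 0.0144 and 0 FPKM in Ribo-seq libraries 1 and 2, against 0.567 and 0.312 FPKM in RNA-seq libraries 1 and 2. On the other side the closest model, 10.3 kb away, had 1.79 and 3.30 FPKM in Ribo-seq and 6.75 and 5.86 FPKM in RNA-seq. The levels of cck described next therefore stand beside neighbours of low level in both assays. FPKM are mapped fragments scaled to the length of the model and to library size.

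In the deposited values cck had 178 and 286 FPKM in Ribo-seq libraries 1 and 2, against 79.3 and 77.6 FPKM in RNA-seq libraries 1 and 2. Both Ribo-seq libraries lay above both RNA-seq libraries. The means were 232 ± 76.5 FPKM in Ribo-seq and 78.4 ± 1.20 FPKM in RNA-seq (SD, n = 2 each). The RNA-seq replicates were close to each other, at a ratio of 1.02, whereas the Ribo-seq value of library 2 was 1.61 times that of library 1. Much of that gap was shared by other models. Once each library was divided by its median ratio to the geometric mean of models above 0 in all 4 libraries, cck had 274 and 309 scaled FPKM in Ribo-seq, and 56.7 and 58.8 scaled FPKM in RNA-seq. The Ribo-seq replicates then differed 1.13-fold, and the means were 291 ± 25.2 in Ribo-seq and 57.7 ± 1.46 in RNA-seq (SD, n = 2 each). The ratio of Ribo-seq to RNA-seq ranged from 4.66 to 5.46 over the 4 pairings of scaled libraries, and from 2.25 to 3.69 in the deposited FPKM.

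The rank of cck did not depend on any scaling between libraries. Among all 93896 models it ranked 298 and 308 in Ribo-seq libraries 1 and 2, and 813 and 818 in RNA-seq libraries 1 and 2. Among the 7242 models with a RefSeq symbol it ranked 43 in each Ribo-seq library, and 91 and 93 in the RNA-seq libraries. It thus stood above 99.4% of these models by footprints and above 98.7% by RNA. Relative to the median of the 5708 tested models with a symbol, cck was 39.6 and 40.5 times as high in the Ribo-seq libraries, and 14.4 and 14.0 times as high in the RNA-seq libraries.

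Footprints of cck exceeded the RNA level by 2.31 ± 0.14 on the log2 scale (Ribo-seq minus RNA-seq of scaled FPKM plus 1, SE), a 4.97-fold difference, and the model was called higher in Ribo-seq (limma over 50625 tested models, Benjamini-Hochberg adjusted p = 0.0039). A call was an adjusted p below 0.05. The same call was made for 23.9% of all tested models (33.7% were called lower) and for 52.4% of those with a symbol, so the call on its own does not set cck apart. By size, the difference of cck ranked 1037 among all 50625 tested models and 160 among the 5708 with a symbol, of which 97.2% lay below it. It was 1.55 above the median of the symbol-bearing models, which was 0.76. For cck taken alone, an exact permutation test over the 4 libraries gave a two-sided p of 0.333, the smallest that 2 against 2 libraries allow. In the deposited FPKM, without scaling, the difference was 1.51 ± 0.38 and still called (limma, adjusted p = 0.029), as were 8.36% of the symbol-bearing models and 4.79% of all tested models. Without RNA-seq library 1 and without RNA-seq library 2 the adjusted p was 0.047 and 0.048 (limma), with the lone RNA-seq library assumed to vary like the Ribo-seq pair.

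The footprint excess of the symbol-bearing models differed with RNA level, so cck was set against models at its own level. The median log2 difference was 0.57 for 2474 models with 1 to 5 FPKM of RNA, 0.89 for 2570 models with 5 to 20, 1.35 for 396 models with 20 to 50, 1.27 for 98 models with 50 to 100, and 0.73 for 65 models at 100 or above. It was 0.98 for 104 models below 1 FPKM of RNA, which reached the mean FPKM needed for testing only through their footprints. The share of models with a larger difference than cck was 0.687% between 1 and 5 FPKM, and 15.3% between 50 and 100 FPKM, the range that holds cck. The 1 added to scaled FPKM shrinks the log2 differences of models with little RNA more than those at the level of cck. It thus lowers the share and the median between 1 and 5 FPKM, by an amount that was not tested. These low values are therefore not a measure of RNA level alone.

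**Figure D1:**
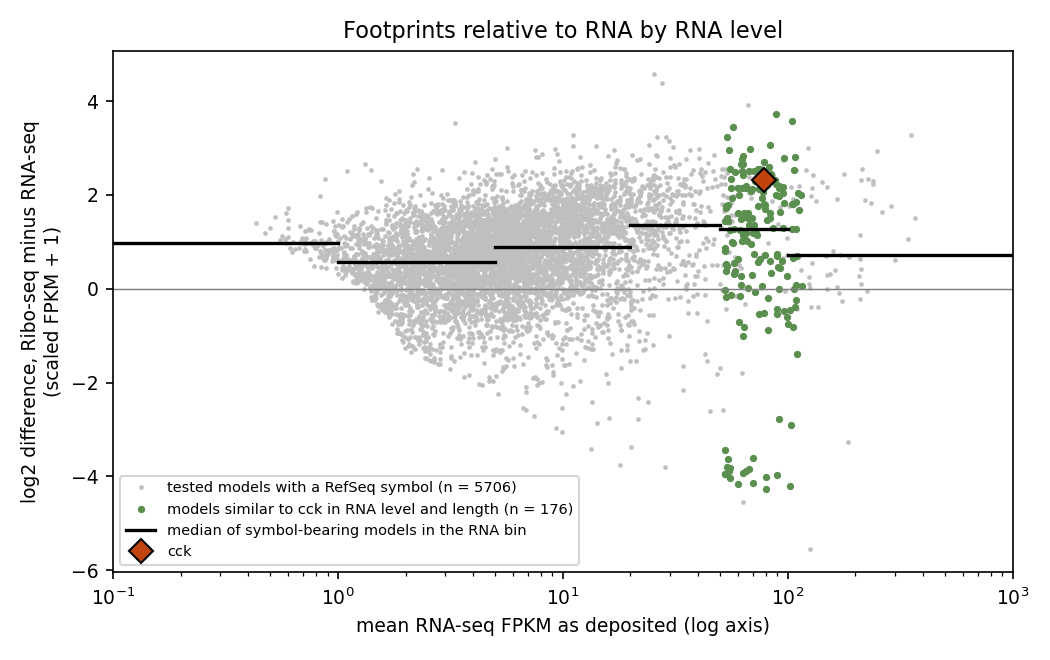
Log2 difference of Ribo-seq minus RNA-seq against the mean RNA-seq FPKM (log axis), with grey points for tested models that carry a RefSeq symbol, green points for the models similar to cck, and black bars for medians of the symbol-bearing models in bins of RNA level. The cck model (diamond, 2.31) lies above the median of its bin (1.27) with other models above it.

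A closer set was made of the 176 tested models whose mean RNA-seq FPKM and length were both within 1.5-fold of cck, that is, 52.4 to 116 FPKM of RNA and 763 to 1710 bases. The RNA-seq values that chose these models also enter the difference, so their place is given as a description. In Ribo-seq libraries 1 and 2 these models had medians of 75.1 and 120 FPKM, and cck was 2.37 and 2.38 times as high. In RNA-seq libraries 1 and 2 they had medians of 71.5 and 72.1 FPKM, and cck was 1.11 and 1.08 times as high. The excess over models of like RNA level was therefore nearly the same in both Ribo-seq libraries, and it needs no scaling between libraries.

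The log2 difference of these 176 models had a median of 1.27, with quartiles at 0.01 and 2.12, and cck lay 1.04 above the median. Of the 176 models 146, or 83.0%, lay below cck and 30 above it. Of the same 176, 113 (64.2%) were called higher, against 23.9% of all tested models. Among the 46 with a symbol 56.5% were called higher, against 52.4% of all symbol-bearing models. A separate group of 20 models lay below -2, and none of the 20 was matched to a protein-coding RefSeq gene. Among the 78 similar models matched to such a gene the median was 1.62, and cck lay 0.70 above it and above 80.8% of them. Among the 59 that overlap no other model cck lay 0.86 above the median and above 81.4%.

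**Figure D2:**
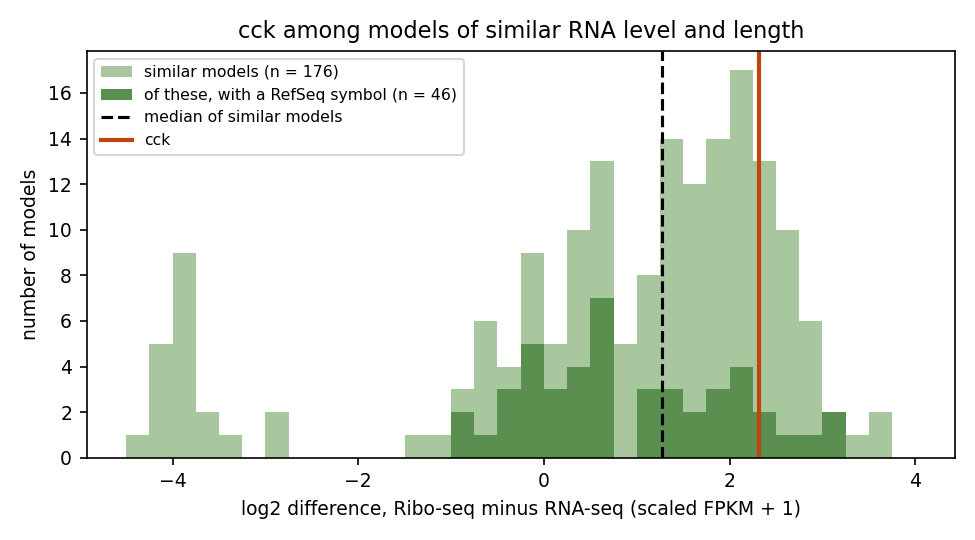
Histogram of the log2 difference (Ribo-seq minus RNA-seq) of the 176 models within 1.5-fold of cck in RNA level and length (light), and of the 46 among them with a RefSeq symbol (dark). The line for cck at 2.31 lies above the upper quartile of 2.12, and the group on the far left consists of the 20 models below -2.

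Of the 46 similar models with a symbol, 40 lay below cck and 6 above. Counting by symbol, a division made after the values were seen, 23 of the 46 were ribosomal proteins. Their median log2 difference was 0.07, and only rps3 among them lay above cck. The other 23 had a median of 1.77, and cck was 0.55 above it, with 5 of them higher. The highest was atp6ap2, an accessory protein of the vacuolar proton pump that acidifies granules, with 265 and 334 FPKM in Ribo-seq and 51.0 and 56.7 FPKM in RNA-seq, a difference of 3.24. Just above cck stood mdh2, a mitochondrial malate dehydrogenase (2.67), rps3 (2.45) and atp6ap1, another accessory protein of the proton pump (2.43). Just below stood eno2, the enolase of neurons (2.23), rbp4, a retinol carrier of plasma (2.16), and atp5f1c, an ATP synthase subunit (2.12). The lowest was rpl37, a ribosomal protein, with 21.9 and 28.6 FPKM in Ribo-seq and 82.3 and 81.4 FPKM in RNA-seq. At the same RNA level as cck, its difference was -0.88. The models of atp6ap2, rps3, atp6ap1, eno2 and atp5f1c overlap another model, and those of mdh2, rbp4 and rpl37 do not.

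The models whose pattern over the 4 libraries was most like that of cck were sought by Euclidean distance on log2 of scaled FPKM plus 1. Of 7241 other symbol-bearing models, 7 lay within a distance of 0.5, against a median distance of 9.73. The closest was atp5pd, an ATP synthase subunit, at 0.23, with 158 and 306 FPKM in Ribo-seq and 76.4 and 83.6 FPKM in RNA-seq. It was followed by eno2 (0.32), atp6v1a, a catalytic subunit of the proton pump (0.39), rps3 (0.41), psap, the precursor of lysosomal saposins (0.42), and rbp4 (0.43). None of these 6 is a neuropeptide precursor. Of the 6, only the models of atp5pd and rbp4 overlap no other model. A distance over 4 libraries of 1 condition mostly compares the levels of both assays.

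Among the neuropeptide precursors of the list used here cck was the highest in every library. The peptide precursor pomc was counted with the pituitary hormones and is not on this list. It was above cck in every library, at 505 and 819 FPKM in Ribo-seq and 247 and 231 FPKM in RNA-seq. The list held 25 models with a matched symbol, cck included, and many precursors of the list were not matched and are not analysed here, among them avp, sst, agrp and pmch. In summed FPKM over the 25 models, cck made up 23.9% and 23.0% in Ribo-seq libraries 1 and 2, and 20.6% and 19.4% in RNA-seq libraries 1 and 2. By RNA the next were npy, the precursor of the feeding peptide neuropeptide Y, and oxt, the precursor of the oxytocin-family peptide. In bulk tissue a difference in cell number and one in RNA per cell cannot be told apart, so these levels say nothing on how many neurons hold each peptide.

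**Figure D3:**
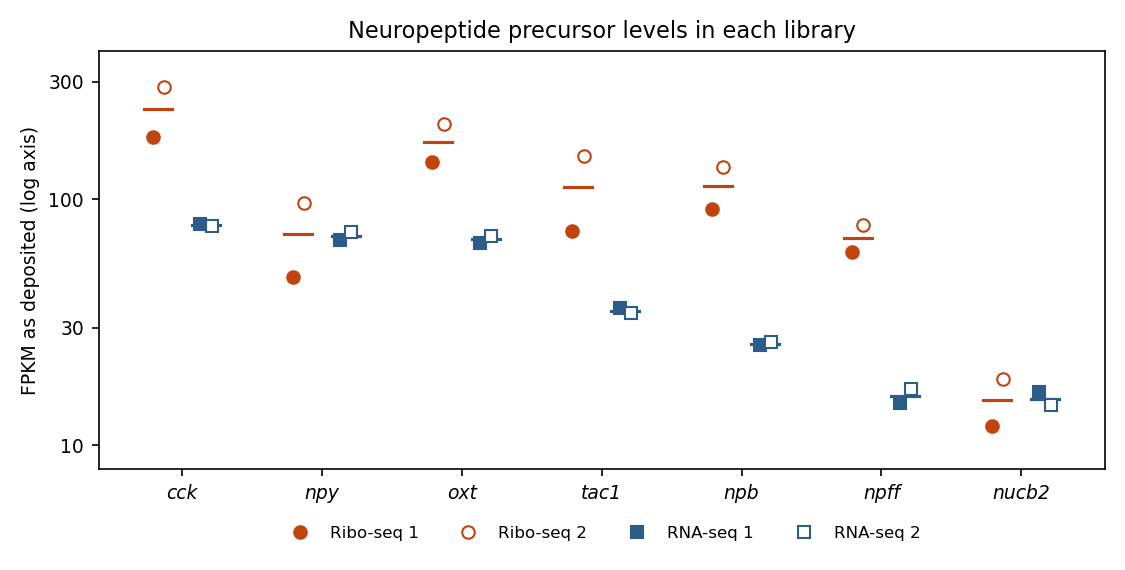
Deposited FPKM (log axis) of cck and the 6 other neuropeptide precursors of the list with the highest RNA level. Ribo-seq libraries are circles on the left and RNA-seq libraries are squares on the right of each gene. Symbols are filled for replicate 1 and open for replicate 2, with bars at the means. RNA levels of cck, npy and oxt lie close together, while npy has the lowest footprints of these 3. The npy model overlaps another model.

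npy had 48.3 and 96.2 FPKM in Ribo-seq, against 68.2 and 73.2 FPKM in RNA-seq. In these deposited values, before scaling, its Ribo-seq libraries lie on either side of its RNA-seq libraries. By RNA, cck was 1.16 and 1.06 times as high as npy in libraries 1 and 2, but by footprints it was 3.69 and 2.97 times as high. Unlike the models of cck and oxt, the npy model overlaps another model, so its reads may be split with that model. The log2 difference of npy was 0.74 ± 0.22 (SE), short of the threshold (limma, adjusted p = 0.051), and was -0.051 without scaling. It passed without Ribo-seq library 1, at 1.18 (limma, adjusted p = 0.014), and without Ribo-seq library 2, at 0.69 (adjusted p = 0.041). In each of these fits the lone Ribo-seq library is assumed to vary like the RNA-seq pair, and the 1.99-fold gap between the Ribo-seq values of npy does not enter, so they show no firmer difference. With all 4 libraries npy passed at the same 0.74 with a minimum mean FPKM of 5 (limma, adjusted p = 0.044). It also passed with the replicate number as a block (limma, adjusted p = 0.030), so its call depends on the setting.

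oxt had 141 and 201 FPKM in Ribo-seq, against 66.2 and 71.0 FPKM in RNA-seq, with the assays apart. The ratio of cck to oxt was 1.26 and 1.42 in Ribo-seq and 1.20 and 1.09 in RNA-seq. For oxt, then, the ratio to cck was much the same in both assays, unlike that for npy. The difference between genes was not tested.

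The precursors tac1, npb and npff had less RNA than cck and footprint excesses of similar or larger size. tac1, the tachykinin precursor, had 74.5 and 149 FPKM in Ribo-seq, against 36.2 and 34.3 FPKM in RNA-seq, a difference of 2.34 ± 0.21. npb, the precursor of neuropeptide B, had 90.9 and 135 FPKM in Ribo-seq, against 25.5 and 26.3 FPKM in RNA-seq, a difference of 2.84 ± 0.13; this is the higher of 2 models with that symbol. npff, the precursor of neuropeptide FF, had 60.9 and 78.2 FPKM in Ribo-seq, against 14.9 and 16.9 FPKM in RNA-seq, a difference of 2.82 ± 0.16. All 3 were called higher (limma, adjusted p = 0.0040, 0.0039 and 0.0039), as were 52.4% of the symbol-bearing models. cck was 3.10 and 2.95 times as high as npb by RNA but 1.96 and 2.12 times as high by footprints. This npb model overlaps another model. nucb2, which encodes the nesfatin precursor, had 12.0 and 18.7 FPKM in Ribo-seq, against 16.4 and 14.5 FPKM in RNA-seq. In these deposited values its groups overlapped and its difference was -0.038. After scaling the difference was 0.72 ± 0.14 and was called (limma, adjusted p = 0.018). The nucb2 model also overlaps another model.

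Of 21 tested neuropeptide models other than cck, 16 were called higher in Ribo-seq, 1 lower and 4 neither, against 52.4% called higher and 6.01% lower among all symbol-bearing models. Their median log2 difference was 1.88, with a range from -1.39 to 2.84, against 0.76 for all symbol-bearing models, with no matching for RNA level. The lowest, rln3 at -1.39, was the 1 called lower. It had 0 and 0.191 FPKM in Ribo-seq, against 2.70 and 2.42 FPKM in RNA-seq. It reached the mean FPKM needed for testing only through its RNA, so its direction was set by the filter. The value of cck, 2.31, was exceeded by 4 of the 21. With no scaling, 7 passed the threshold as higher, against 8.36% of the symbol-bearing models, and 1 as lower. Leaving out RNA-seq library 1 gave 3 higher and 0 lower calls, against 6.08% higher among the symbol-bearing models. Leaving out RNA-seq library 2 gave 4 and 0, against 6.18% higher.

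A further list, called the peptide-making list here, was also examined. It holds enzymes, carriers and granule proteins that make and store the peptide. It also holds the receptor cckar and the breakdown enzymes tpp2 and enpep, which do neither. Of 13 tested members of this list other than cck, 11 were called higher in Ribo-seq, 0 lower and 2 neither, against 52.4% higher and 6.01% lower among all symbol-bearing models. Their median log2 difference was 1.74, against 0.76 for all symbol-bearing models, which were not matched to the list for RNA level. Symbol-bearing models with 20 to 50 and with 50 to 100 FPKM of RNA had medians of 1.35 and 1.27. In the deposited FPKM 3 of the 13 were called higher, against 8.36% of the symbol-bearing models. Leaving out RNA-seq library 1 or RNA-seq library 2 left 1 of the 13 called higher each time, against 6.08% and 6.18% of the symbol-bearing models. As for neuropeptides, these counts depend on the scaling and on the presence of both RNA-seq libraries. Among the 13, the models of cpe, scg3, chga and tpp2 overlap no other model, and the others overlap another model.

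Both neuroendocrine convertases were called higher in Ribo-seq, as were 52.4% of the symbol-bearing models. pcsk1, prohormone convertase 1, had 70.1 and 131 FPKM in Ribo-seq, against 37.9 and 39.4 FPKM in RNA-seq, a difference of 2.08 ± 0.19 (SE, limma, adjusted p = 0.0040). pcsk2, prohormone convertase 2, had 23.7 and 61.3 FPKM in Ribo-seq, against 10.1 and 6.14 FPKM in RNA-seq, a difference of 2.88 ± 0.38 (adjusted p = 0.0073). Its model has a length of 444 bases, overlaps another model, and may cover only part of the gene. A model without a symbol that overlaps it, of 983 bases, was far higher. That model had 135 and 224 FPKM in Ribo-seq, against 70.4 and 68.0 FPKM in RNA-seq, a difference of 2.12. Whether its reads belong to pcsk2 was not tested. In the deposited FPKM pcsk2 kept its call (limma, adjusted p = 0.033) and pcsk1 did not (0.063). scg5, the chaperone of convertase 2, had 155 and 252 FPKM in Ribo-seq, against 93.5 and 99.7 FPKM in RNA-seq, a difference of 1.83. pcsk6, a convertase of the constitutive pathway, was below the limit for testing, with 0.0300 and 0.0697 FPKM in Ribo-seq and 0.759 and 0.499 FPKM in RNA-seq.

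The trimming and amidating enzymes were abundant. cpe, carboxypeptidase E, had 210 and 376 FPKM in Ribo-seq, against 129 and 137 FPKM in RNA-seq, a difference of 1.88. It was the highest of the list by RNA and the only member with more footprints than cck. pam, the amidating monooxygenase, had 108 and 186 FPKM in Ribo-seq, against 40.9 and 44.9 FPKM in RNA-seq. Its difference of 2.49 was above that of cck. cpd, carboxypeptidase D of the trans-Golgi, had 17.2 and 32.0 FPKM in Ribo-seq, against 14.1 and 15.4 FPKM in RNA-seq, a difference of 1.40. All 3 were called higher in Ribo-seq, as were 52.4% of the symbol-bearing models. In the deposited FPKM pam kept its call (limma, adjusted p = 0.025), while cpe (0.091) and cpd (0.26) did not.

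Sulfation could be followed only through the carriers that bring the sulfate donor into the Golgi. slc35b2 had 5.17 and 8.77 FPKM in Ribo-seq, against 3.44 and 3.83 FPKM in RNA-seq, and was called higher at 1.40 (limma, adjusted p = 0.0075). In the deposited FPKM it was not called (limma, adjusted p = 0.13). slc35b3 had 1.82 and 2.81 FPKM in Ribo-seq, against 3.64 and 3.38 FPKM in RNA-seq, and was not called (0.13, limma, adjusted p = 0.56); it was -0.46 in the deposited FPKM. The tyrosylprotein sulfotransferases tpst1 and tpst2 were not matched and are not analysed here.

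The granins, matrix proteins of dense-core granules, lay near cck in RNA level. scg2 had 132 and 227 FPKM in Ribo-seq, against 52.8 and 54.9 FPKM in RNA-seq, a difference of 2.46. scg3 had 148 and 214 FPKM in Ribo-seq, against 90.5 and 95.1 FPKM in RNA-seq, a difference of 1.74. chga, chromogranin A, had 102 and 164 FPKM in Ribo-seq, against 83.1 and 79.3 FPKM in RNA-seq, a difference of 1.46. All 3 were called higher, as were 52.4% of the symbol-bearing models. In the deposited FPKM scg2 kept its call (limma, adjusted p = 0.026), while scg3 (0.090) and chga (0.22) did not. By RNA, cck was 0.95 and 0.98 times as high as chga in libraries 1 and 2, yet by footprints it was 1.74 and 1.75 times as high. The ratio to scg2 was 1.35 and 1.26 by footprints and 1.501 and 1.41 by RNA. The scg2 model overlaps another model, and the chga model does not.

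The receptor and the degrading enzymes stood far below the peptide. cckar, a cholecystokinin receptor, had 1.247 and 1.73 FPKM in Ribo-seq, against 1.82 and 1.93 FPKM in RNA-seq. Its difference of 0.28 was not called (limma, adjusted p = 0.22) and was -0.22 in the deposited FPKM. cck exceeded it 143 and 165 times by footprints and 43.4 and 40.1 times by RNA. Receptors of the cckbr kind and the related peptide gene gast were not matched and are not analysed here. tpp2, a peptidase known in rat brain to inactivate cholecystokinin, had 8.55 and 15.8 FPKM in Ribo-seq, against 10.9 and 11.8 FPKM in RNA-seq. It was called at 0.77 on scaled FPKM (limma, adjusted p = 0.036). In the deposited FPKM its groups overlapped and the difference was 0.04. enpep, an aminopeptidase, was below the limit for testing, with 0.302 and 0.0531 FPKM in Ribo-seq and 1.71 and 1.13 FPKM in RNA-seq.

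**Figure D4:**
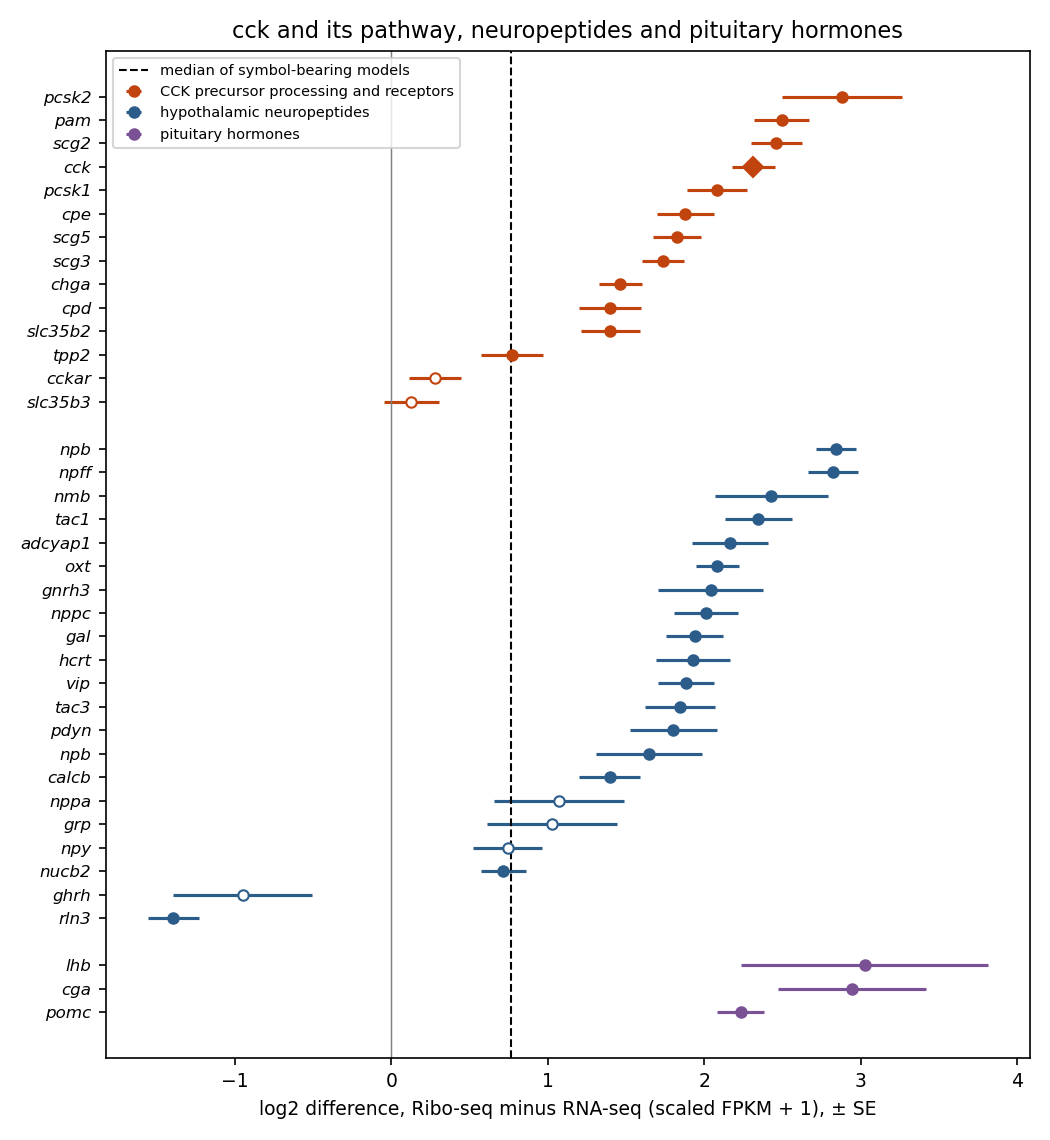
Log2 difference (Ribo-seq minus RNA-seq, with its SE) of the tested models of the peptide-making list with cck (diamond), of other neuropeptide precursors and of pituitary hormones; filled symbols passed the test and open ones did not. cck at 2.31 lies near the top of the peptide-making list, where cckar and slc35b3 are lowest, and the dashed line is the median of symbol-bearing models at 0.76.

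The 3 tested pituitary hormones lay near or above cck in footprint excess, and cga and lhb varied more between libraries. Other pituitary hormone genes, among them gh, tshb and fshb, were not matched and are not analysed here. cga, the alpha subunit shared by glycoprotein hormones, had 1115 and 954 FPKM in Ribo-seq, against 342 and 159 FPKM in RNA-seq. lhb, the beta subunit of luteinizing hormone, had 206 and 86.8 FPKM in Ribo-seq, against 44.7 and 16.9 FPKM in RNA-seq. Between RNA-seq libraries 1 and 2 the level of cga differed 2.15-fold and that of lhb 2.65-fold, while that of cck differed 1.02-fold. pomc, which encodes the corticotropin precursor, had 505 and 819 FPKM in Ribo-seq, against 247 and 231 FPKM in RNA-seq. The ratio of cck to pomc stayed between 0.32 and 0.35 in the 4 libraries, whereas that of cck to lhb was 0.86 and 3.30 in Ribo-seq and 1.77 and 4.59 in RNA-seq. All 3 were called higher, at 2.95, 3.02 and 2.23 (limma, adjusted p = 0.011, 0.037 and 0.0039), as were 52.4% of the symbol-bearing models. None of the 3 was called without either RNA-seq library in turn. lhb also lost its call with upper quartile scaling (limma, adjusted p = 0.059), with no filter (0.059) and with scaling on models matched to protein-coding genes (0.081). It kept its call with the replicate number as a block (limma, adjusted p = 0.014). The model matched to prl, the prolactin gene, was too low to be tested, with 0.129 and 0.299 FPKM in Ribo-seq and 0.367 and 0.114 FPKM in RNA-seq. It overlaps another model and is named by position alone, so its value may not be the level of the gene. The models of pomc and lhb overlap another model too, and that of cga does not.

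Markers of the labelled tissue were looked up, for which a level above 0 is a low bar. Of all 93896 models, 31382 and 33734 were at 0 in Ribo-seq libraries 1 and 2. In RNA-seq libraries 1 and 2 only 5199 and 7139 were at 0. The 6 matched of 9 pituitary markers were above 0 in each library, with summed FPKM of 1835 and 1871 in Ribo-seq and 644 and 414 in RNA-seq, as were the 5 matched of 8 hypothalamic and the 4 of 4 ventral telencephalic markers. The 3 matched of 6 neuron markers were above 0 in each library, with sums made up mostly of snap25, at 1541 and 2469 FPKM in Ribo-seq and 351 and 355 FPKM in RNA-seq. In these deposited FPKM, before scaling, elavl3 went the other way, at 16.7 and 29.7 FPKM in Ribo-seq and 39.9 and 46.2 FPKM in RNA-seq. The assays overlapped for stmn2 in the deposited FPKM. The pituitary sum thus differed between the RNA-seq libraries, in which cck differed 1.02-fold. Of the markers of liver or gut only fabp2 was matched, at 0.503 and 0 FPKM in Ribo-seq and 0.669 and 1.65 FPKM in RNA-seq. The model matched to the pituitary marker prl, counted as above 0, had less RNA than that of fabp2 in both RNA-seq libraries. Being above 0 therefore says little by itself on the tissue.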

How the data were processed

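The values are FPKM per library, as deposited by the authors for each transcript model, with model lengths in bases per the file headers. TopHat2 2.1.0 and Cufflinks 2.2.1 are listed, with no role stated, in the submitters' processing notes. Per the labels' protocols, libraries were made with the TruSeq Ribo Profile Mammalian kit. Not given in the sources used here are the build, the annotation, the use of strand, and whether footprint FPKM refer to coding regions or whole models. The length behind the footprint FPKM bears on every difference between the assays, and its part was not tested. Whole reads could not be recovered (at best 27.8% to 54% of low values lay within 0.1 of a whole multiple), so depth is unknown and counting errors are left out. Starts were taken as counted from 0 and are printed from 1. Length equalled end minus deposited start in 6724 models and was 1 base longer than that in 0 models.

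Symbols came from RefSeq (assembly ASM223467v1) by overlap in position of at least 50% in both directions, with 1 model per gene; 7242 models received one. The ends of 2137 models matched protein-coding gene ends to 10 bp, against 62 after a shift of 20 kb. Libraries were scaled by median ratio (factors 0.651 and 0.925 for Ribo-seq, 1.40 and 1.32 for RNA-seq). Models with a mean FPKM of at least 1 were fitted with limma 3.58.1 (R 4.3.3, trend) on log2 of scaled FPKM plus 1, with the assay as the term. An overall difference in level between assays cannot be seen in FPKM, and the log2 scale with a pseudocount understates differences of low models. Other steps used Python 3.11.15.

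The gene, the lists and the alternatives were chosen with earlier results of these data known. Genes named were cck, all matched members of the peptide-making list, the 6 neuropeptides and the pituitary hormones with most RNA and above 0 in each library, the 6 models closest to cck, and among similar symbol-bearing models the 3 next to cck on each side with the highest and lowest.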

Additional observations from a re-analysis of the deposited data

How the results depend on the processing

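The log2 difference of cck kept its direction and its call under all 11 alternatives, from 1.51 with FPKM as deposited to 2.33 with a pseudocount of 0.1, and from 2.27 to 2.60 when 1 library was left out, where the lone library of an assay is assumed to vary like the pair of the other. With the replicate number as a replicate block it was 2.31 (limma, adjusted p = 0.014), with 11131 models called higher and 16488 lower; npy was then called (adjusted p = 0.030). Over 50625 models, same-numbered libraries shared deviations only weakly (correlation 0.07). That figure does not speak for each gene, as cga and lhb were higher in library 1 than in library 2 of both assays. With the block, the SE fell from 0.79 to 0.19 for lhb and from 0.47 to 0.16 for cga. The labels do not say that a number is shared between assays, so the numbers were not taken as pairs.

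The distance of cck from models of similar RNA level and length, 1.04, ranged from 1.03 to 1.13 when 1 library was left out, and was 0.70 and 0.86 against models matched to protein-coding genes and models free of overlap. As reported, 12116 models were called higher and 17048 lower. The higher count was 2425 with FPKM as deposited and 6267 with scaling on models matched to protein-coding genes, an alternative added after seeing the data, under which cck was at 1.57; leaving out 1 library gave 1529 to 16410. The lower count was 29544 without any filter and 4477 with a minimum mean FPKM of 5, and 9458 to 17897 with 1 library left out. With FPKM as deposited, 3 of 13 peptide-making and 7 of 21 neuropeptide members were called higher, against 8.36% of the symbol-bearing models. Peptide-making and neuropeptide members called lower were 1 and 2 without any filter, when 29544 of all models were called lower. With the minimum of 5, 0 neuropeptides were called lower, against 4477 of all models. Leaving out 1 library gave 1 to 11 peptide-making, 3 to 18 neuropeptide and 0 to 3 pituitary members called higher, and 0 to 2 neuropeptides lower; the lowest counts came without an RNA-seq library, when 20 of 30 other named genes lost their call. The cause was not tested.

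Directions turned for npy (-0.051), nucb2 (-0.038), slc35b3 (-0.46) and cckar (-0.22) with FPKM as deposited, for slc35b3 with upper quartile scaling (-0.17), and for slc35b3 (-0.43) and cckar (-0.19) with scaling on models matched to protein-coding genes. The median of symbol-bearing models was 0.13 with FPKM as deposited, against 0.76 as reported.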
